A study of Homo sapiens with 4 samples.

Results

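Respiratory complex I was examined through the 38 nuclear genes of its subunits, out of 28729 genes with FPKM values (fragments scaled to gene length and library size). The members were the protein-coding genes whose whole symbol is NDUFA, NDUFB, NDUFC, NDUFS or NDUFV and a number, together with NDUFAB1. Assembly factors and pseudogenes were left out. The cells were TU-177, an established line of laryngeal squamous cell carcinoma (LSCC). They were transduced with lentivirus carrying a negative control shRNA (NC, 2 libraries) or an shRNA against SKA3 (SKA3-KD, 2 libraries), and both groups were selected with puromycin. SKA3 encodes a protein of the spindle and kinetochore associated complex, which links kinetochores to spindle microtubules. Both groups are pools of resistant cells from 1 line, and the labels do not say whether the 2 libraries of a group came from separate cultures, so the p-values measure only the spread between these libraries.

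Complex I (NADH:ubiquinone oxidoreductase) takes electrons from NADH, passes them along a flavin and a chain of iron-sulfur clusters to ubiquinone, and pumps protons across the inner mitochondrial membrane. It is shaped like an L. The matrix arm carries the electron path and the membrane arm carries the proton pumps. The catalytic core is built from 7 nuclear and 7 mitochondrially encoded subunits, and the remaining, accessory subunits surround the core and are needed for assembly and stability. Accessory subunits are encoded by nuclear genes, whose transcripts are translated in the cytosol and imported.

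The 4 libraries had sizes between 9015056 and 11966130, as read from the steps of the FPKM values, so that 1 read per kilobase was worth 0.0836 to 0.111 FPKM. SKA3 itself stood at 9.40 and 9.64 FPKM in the NC libraries and at 3.77 and 4.12 FPKM in the SKA3-KD libraries. Its log2 fold change was -1.09 (SE 0.075, limma with Benjamini-Hochberg adjustment over 12645 genes, adjusted p = 0.00806). Of 7 squamous markers, SFN (133 to 155 FPKM) and KRT17 (29.4 to 49.1 FPKM) were well above 1 FPKM, TP63 lay between 0.348 and 0.580 FPKM, and KRT5, KRT6A and KRT14, the defining keratins, were at 0 or up to 0.103 FPKM. The squamous markers summed to between 190 and 205 FPKM in the NC libraries and to between 163 and 186 FPKM after knockdown. The fibroblast markers summed to 12.5 to 13.3 FPKM in the NC libraries and 5.43 to 5.67 FPKM after knockdown, mostly through DCN (8.40 and 8.36 FPKM against 2.48 and 2.35 FPKM), while COL1A2 and LUM were at or below 0.221 FPKM. COL1A1 (3.22 and 3.99 FPKM against 2.71 and 2.66 FPKM) and COL3A1 (0.797 and 0.765 FPKM against 0.476 and 0.361 FPKM) were also lower in both SKA3-KD libraries. Among the squamous markers KRT17 fell by 0.53 on the log2 scale (limma adjusted p = 0.0396). All 3 leukocyte and both endothelial markers measured were under 1 FPKM, with sums of at most 0.495 and 0.0968 FPKM. The part of these marker differences in the results below was not tested.

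The complex I transcripts were, on balance, a little lower in SKA3-KD than in NC. Of the 38 members, 34 had a mean of at least 1 FPKM and were tested. NDUFB2, NDUFA1, NDUFB1, NDUFB9, NDUFA4 and NDUFA12 fell and no member rose. Those 6 are 17.6% of the members tested, and over all genes 6.11% were called lower and 6.16% higher. A log2 fold change below 0 was seen for 26 of the 34 members (76.5%), against 48.4% of all genes tested. The member median was -0.154 on the log2(FPKM + 1) scale, where the median of all genes was 0.01.

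Both SKA3-KD libraries lay below both NC libraries for 21 members (61.8%) and above both for 3 (8.82%), while the shares over all genes were 29.2% and 32.3%. The median deviation of the members from the NC mean was 0.03 and -0.03 in the NC libraries and -0.13 and -0.18 in the SKA3-KD libraries. Both of the latter were thus lower than both NC medians, and the SD of a library median within a group was 0.045. At an unadjusted p under 0.05, 14 members were lower and 1 was higher, against 15.1% and 16.2% of all genes. In a bulk sample, fewer cells of a type and less RNA per cell cannot be told apart.

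The number of members called also moved with the fit, and so did the share of all genes. With a filter of 5 FPKM 10 members were called lower (12.1% of all genes), with limma voom on recovered reads 13 (11.1%), at an adjusted p under 0.1 10 (10.7%) and with the replicate number as a block 11 (7.63%). NDUFB2 was the 1 member called without a variance trend (3.01% of all genes) and without a filter (0.306%). These calls rest on few libraries. Without NC 1 or without NC 2 limma called 0 of 12645 genes, although 3124 and 3352 genes, with 10 and 12 members among them, had an unadjusted p under 0.05. NDUFB2 was the member called when SKA3-KD 1 (66 genes) or SKA3-KD 2 (181 genes) was left out. At these settings 0.419% and 1.07% of all genes were called lower. The member median was -0.155 without NC 1, -0.219 without NC 2, -0.184 without SKA3-KD 1 and -0.125 without SKA3-KD 2.

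**Figure D1:**
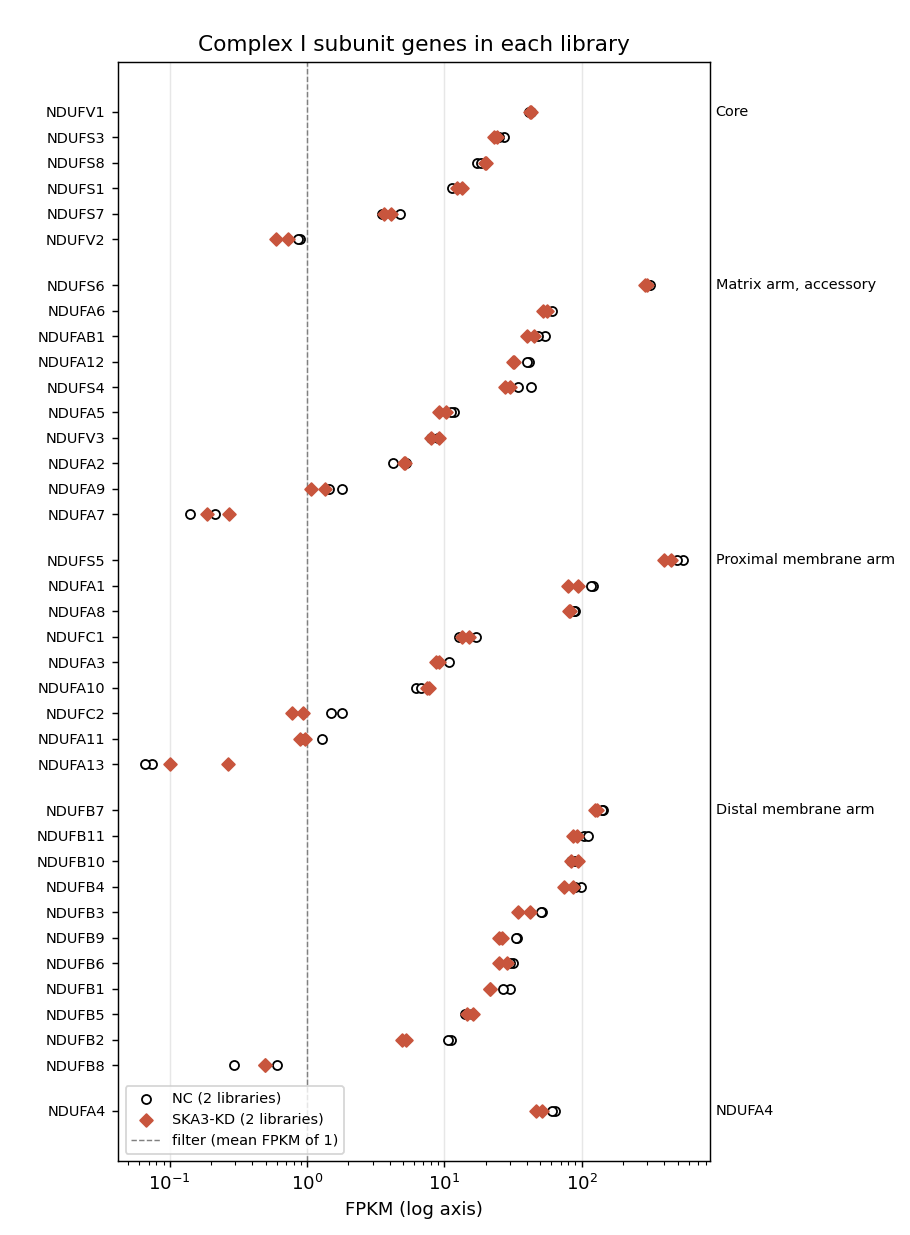
FPKM (log axis) of 37 of the 38 complex I genes in each of the 4 libraries, with NC as open circles, SKA3-KD as filled diamonds and members ordered by mean level within each structural group. Levels run from 0.127 (NDUFA13) to 469 FPKM (NDUFS5) on average, and 4 members lie below the dashed line at 1 FPKM.

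Levels between members were compared only per length, as FPKM, which divides by the merged exon length of a gene. The highest were NDUFS5, an intermembrane space subunit of the membrane arm, at 545 and 491 FPKM in NC and 446 and 395 FPKM in SKA3-KD, and NDUFS6, a zinc-binding subunit of the matrix arm, at 309 and 315 FPKM in NC and 297 and 287 FPKM in SKA3-KD. For both the groups did not overlap, and neither passed the test (NDUFS5 log2 fold change -0.30, adjusted p = 0.0875; NDUFS6 -0.10, adjusted p = 0.276, both limma). NDUFS5 did pass with limma voom (adjusted p = 0.0151), the replicate block (limma adjusted p = 0.0223) and the 5 FPKM filter (limma adjusted p = 0.0411). The median over the 38 members was 24.8 FPKM.

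The core subunits of the matrix arm did not move together. Of the 7 genes, 6 were tested, none was called, 3 were below 0 and 3 above, and their median log2 fold change was -0.03. Over all genes tested 6.11% were called lower and 48.4% were below 0, so no call among 6 genes does not set the core apart. NDUFV1, which binds NADH and the flavin, stood at 41.5 and 42.5 FPKM in NC and at 42.9 and 41.8 FPKM in SKA3-KD (log2 fold change 0.01, SE 0.055). NDUFS1, which holds iron-sulfur clusters of the NADH module, was measured at 12.4 and 11.4 FPKM in NC and 13.4 and 12.4 FPKM in SKA3-KD. The libraries were interleaved for NDUFV1, and for NDUFS1 the SKA3-KD values began where the NC values ended.

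The subunits of the module that passes electrons to ubiquinone showed small differences of either sign. NDUFS3, a subunit of that module, had 27.1 and 24.8 FPKM in NC and 24.0 and 22.8 FPKM in SKA3-KD (log2 fold change -0.14). It was lower in each SKA3-KD library without passing the test (limma adjusted p = 0.253). NDUFS7, carrier of the last iron-sulfur cluster before ubiquinone, was listed at 3.49 and 4.75 FPKM in NC and 3.61 and 4.05 FPKM in SKA3-KD, with groups that overlapped. NDUFS8, another iron-sulfur subunit, had 17.2 and 18.6 FPKM in NC and 19.8 and 20.1 FPKM in SKA3-KD, both SKA3-KD libraries higher (log2 fold change 0.15, SE 0.067, limma adjusted p = 0.194).

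Among the accessory subunits of the matrix arm 9 were tested, 7 were below 0 and 1 was called, and their median on the log2 scale was -0.22. Over all genes tested 48.4% were below 0 and 6.11% were called lower, so 1 call says little about the group. NDUFA12, which sits on the matrix arm and resembles the assembly factor NDUFAF2, stood at 41.1 and 40.0 FPKM in NC and 32.3 and 31.7 FPKM in SKA3-KD. The NC values were close to each other and well above the SKA3-KD values, and NDUFA12 fell by 0.33 on the log2 scale (SE 0.056, limma adjusted p = 0.0289). NDUFS4, needed for a stable NADH module and a frequent site of Leigh syndrome mutations, had 43.0 and 34.2 FPKM in NC and 30.1 and 27.5 FPKM in SKA3-KD. The NC libraries of NDUFS4 were far apart, and its log2 fold change of -0.40 (SE 0.121) missed the threshold (limma adjusted p = 0.0966). It was -0.24 without NC 1, and NDUFS4 passed with limma voom (adjusted p = 0.0199), the 5 FPKM filter (limma adjusted p = 0.0395), the replicate block (limma adjusted p = 0.0415) and a correction for main transcript length and GC content (limma adjusted p = 0.0275). NDUFAB1, the mitochondrial acyl carrier protein, was lower in both SKA3-KD libraries (53.6 and 48.3 FPKM against 44.8 and 40.2 FPKM) without passing the test. NDUFA2, with a thioredoxin fold, had the highest log2 fold change of this group at 0.09 (SE 0.108).

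In the proximal membrane arm 8 members were tested, 7 were below 0 and 1 was called, with a median of -0.13. The shares over all genes were 48.4% below 0 and 6.11% called lower, so here too 1 call says little about the group. NDUFA1, a small X-linked membrane subunit required for assembly, stood at 121 and 117 FPKM in NC and 93.8 and 79.4 FPKM in SKA3-KD. Both SKA3-KD libraries were clearly below NC, and NDUFA1 fell by 0.46 on the log2 scale (SE 0.092, limma adjusted p = 0.0405). NDUFC2, another membrane subunit, had the lowest value of the group, a log2 fold change of -0.51 (SE 0.157, limma adjusted p = 0.101), from 1.48 and 1.80 FPKM in NC to 0.778 and 0.927 FPKM in SKA3-KD, or 47 and 43 reads against 21 and 29. The NDUFC2 groups did not overlap, and its SKA3-KD mean was 52.0% of the NC mean. On the recovered reads, limma voom gave NDUFC2 a log2 fold change of -0.90 (adjusted p = 0.0488). NDUFA10, which has the fold of a nucleoside kinase, had the highest log2 fold change of all members tested at 0.20 (SE 0.072, limma adjusted p = 0.139), with 6.25 and 6.71 FPKM in NC and 7.45 and 7.73 FPKM in SKA3-KD.

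The distal membrane arm had the lowest median of the structural groups at -0.24, with 8 of 10 members below 0 and 3 called. These counts stand beside 48.4% of all genes below 0 and 6.11% called lower. NDUFB2, a small membrane subunit, stood at 11.2 and 10.6 FPKM in NC and at 5.26 and 4.92 FPKM in SKA3-KD, or 594 and 424 reads against 238 and 258. It fell by 0.96 on the log2 scale (SE 0.073, limma adjusted p = 0.00837), the largest change among the members tested, to 46.8% of the NC mean. NDUFB1, also a small membrane subunit, went from 30.0 and 26.8 FPKM in NC to 21.5 and 21.3 FPKM in SKA3-KD and fell by 0.39 (SE 0.075, limma adjusted p = 0.0368). NDUFB9, an LYR-motif protein that contacts the acyl carrier protein, went from 33.8 and 33.2 FPKM to 26.2 and 25.1 FPKM and fell by 0.37 (SE 0.059, limma adjusted p = 0.0255). For all 3 the groups did not overlap. The replicates of NDUFB2 and NDUFB9 lay close together, while the NC libraries of NDUFB1 were further apart. Its log2 fold change was -0.31 without NC 1 and -0.47 without NC 2. NDUFB3 (-0.41) and NDUFB11 (-0.27) were lower in both SKA3-KD libraries and missed the threshold (limma adjusted p = 0.0615 and 0.0686).

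At the upper end of the same arm, NDUFB7, a twin-cysteine subunit on the intermembrane space side, had the highest FPKM. It stood at 143 and 141 FPKM in NC and 129 and 124 FPKM in SKA3-KD (-0.17, limma adjusted p = 0.103). That order depends on merged exon length, which for NDUFB7 is the length of its main transcript (531 bases). For NDUFB4 it is 1889 bases against 671, with 2236 and 1512 reads in NC against 910 and 677 for NDUFB7. NDUFB10, of the same fold as NDUFB7, stood at 83.6 and 88.7 FPKM in NC and 93.8 and 83.6 FPKM in SKA3-KD, with overlapping groups (0.04). NDUFA4 belongs to the members by its name only, since later work counts its protein with complex IV (cytochrome c oxidase). It went from 63.6 and 60.8 FPKM in NC to 51.1 and 46.6 FPKM in SKA3-KD and fell by 0.34 (SE 0.069, limma adjusted p = 0.0408). Without NDUFA4, 5 of 33 members were called and the median was -0.139.

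**Figure D2:**
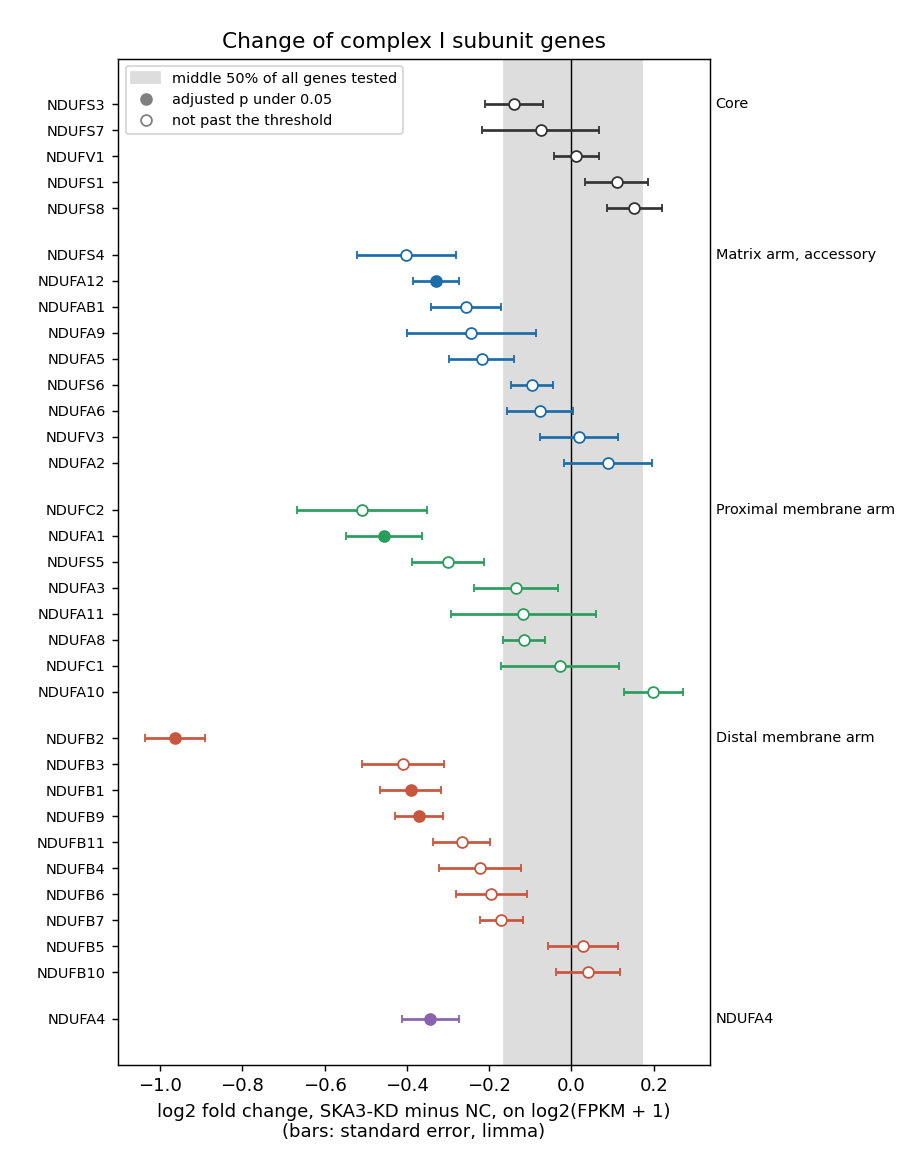
Log2 fold change (SKA3-KD minus NC, on log2(FPKM + 1)) of 33 of the 34 members tested, by structural group, with bars for the limma standard error, filled points for adjusted p under 0.05 and a grey band from -0.16 to 0.17 for the middle 50% of all genes. NDUFB2 stands apart at -0.96, and the core genes drawn lie within the band.

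Among the 6 members that fell, promoters of 4 were held in the RefSeq promoter table (GRCh38.p14, 250 bases before to 50 after the transcript start), and they are shown because these genes carry the calls. Capitals mark the motif matches on either strand among 5 motifs searched: CCGGAAG (ETS), CCAAT, TGACGTCA (cAMP response element), AAGATGGC (YY1) and GCGCATGC (NRF1). No motif contains another.
NDUFB2 (chr7:140696458-140696757, + strand): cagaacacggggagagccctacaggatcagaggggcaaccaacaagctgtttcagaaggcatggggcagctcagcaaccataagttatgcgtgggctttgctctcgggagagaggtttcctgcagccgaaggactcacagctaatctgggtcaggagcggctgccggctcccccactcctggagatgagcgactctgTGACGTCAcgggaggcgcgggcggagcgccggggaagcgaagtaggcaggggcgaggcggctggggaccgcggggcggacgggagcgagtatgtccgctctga
NDUFA1 (chrX:119871582-119871881, + strand): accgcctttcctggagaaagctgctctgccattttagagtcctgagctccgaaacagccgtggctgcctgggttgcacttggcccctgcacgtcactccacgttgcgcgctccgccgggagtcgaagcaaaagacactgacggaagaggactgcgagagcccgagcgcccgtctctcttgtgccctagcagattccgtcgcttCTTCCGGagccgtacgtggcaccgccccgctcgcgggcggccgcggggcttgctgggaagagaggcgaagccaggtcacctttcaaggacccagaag
NDUFB1 (chr14:92121657-92121956, - strand): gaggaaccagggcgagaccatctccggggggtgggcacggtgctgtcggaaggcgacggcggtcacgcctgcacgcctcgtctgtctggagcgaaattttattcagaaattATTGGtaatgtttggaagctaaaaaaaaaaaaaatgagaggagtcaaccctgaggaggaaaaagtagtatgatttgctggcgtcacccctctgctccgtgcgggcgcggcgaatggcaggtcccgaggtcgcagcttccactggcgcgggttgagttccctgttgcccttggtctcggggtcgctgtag
NDUFA12 (chr12:95003648-95003947, - strand): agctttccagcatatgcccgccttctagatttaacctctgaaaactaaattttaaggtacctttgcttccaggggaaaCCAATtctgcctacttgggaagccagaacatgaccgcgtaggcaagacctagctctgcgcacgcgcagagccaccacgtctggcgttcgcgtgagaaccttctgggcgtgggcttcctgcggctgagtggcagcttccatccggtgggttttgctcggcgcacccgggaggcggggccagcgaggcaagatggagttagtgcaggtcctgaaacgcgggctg

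The 4 promoters did not share a motif. NDUFB2 held the cAMP response element, NDUFA1 held the ETS letters, and NDUFB1 and NDUFA12 held CCAAT. Of the 38 members, 32 had an entry in the table, with 39 promoters in all because some genes have several starts. The ETS letters were found in 12.8% of these member promoters and 10.3% of all 35116 promoters, and CCAAT in 25.6% and 34.6%. AAGATGGC stood in 17.9% of the member promoters and 2.89% of all, GCGCATGC in 15.4% and 3.05%, and TGACGTCA in 5.13% and 1.85%. AAGATGGC was found at NDUFA3, NDUFA6, NDUFA7, NDUFA9, NDUFB8, NDUFS4 and NDUFS7, and GCGCATGC at NDUFA5, NDUFA6, NDUFA8, NDUFB4, NDUFS6 and NDUFS7. Of these genes NDUFA7 and NDUFB8 were not tested, and none of those tested was called lower, where 6.11% of all genes were. So few genes cannot be told from that share. In other fits some were called, NDUFS4 and NDUFA5 with limma voom and NDUFS4 and NDUFB4 with the replicate block. The cAMP response element was added after the NDUFB2 sequence had been seen. A match describes letters in this window and is no measure of binding.

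The position of NDUFB2 was looked at in the annotation (GENCODE 29, GRCh38, chromosome 7, 140690777 to 140722790, plus strand). Its neighbour ADCK2, encoding a mitochondrial kinase-like protein, shares 64 exon bases with it on the same strand, outside the NDUFB2 main transcript. ADCK2 had a log2 fold change of 0.19 (limma adjusted p = 0.19). BRAF, which overlaps NDUFB2 on the other strand, had -0.17 (limma adjusted p = 0.252). The antisense gene NDUFB2-AS1, also on the other strand, had 3 to 11 reads and was not tested. MRPS33, a mitochondrial ribosomal protein gene further along, fell by 0.56 (limma adjusted p = 0.0341). KDM7A-DT, at a lower position, fell by 0.77 (limma adjusted p = 0.0258). SLC37A3 (-0.109) and MKRN1 (-0.098), which lie between KDM7A-DT and NDUFB2, were not called. RF00019 (-0.525), beyond KDM7A-DT, was not called either, nor were TMEM178B (-0.294), AGK (0.059) and KIAA1147 (-0.295), beyond MRPS33. Over all genes tested 6.11% were called lower. Exons of other genes on the opposite strand cover 29.6% of the NDUFB2 main transcript, 44.5% of NDUFA1 and 26.0% of NDUFB9. The sources used here do not state whether the counting used strand, and without strand reads of such gene pairs cannot be told apart.

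A few subunits of the enzyme were listed almost at 0. NDUFV2, the iron-sulfur partner of NDUFV1, stood at 0.894 and 0.859 FPKM in NC and 0.725 and 0.594 FPKM in SKA3-KD, on 19 to 29 reads. NDUFB8 of the distal membrane arm was listed at 0.292 and 0.604 FPKM in NC and 0.497 and 0.495 FPKM in SKA3-KD. NDUFA7 of the matrix arm was listed at 0.212 and 0.141 FPKM in NC and 0.187 and 0.269 FPKM in SKA3-KD. These low levels are far from those of the other subunits, with which the proteins form 1 complex. NDUFA13, also known as GRIM-19, was listed at 0.0748 and 0.0662 FPKM in NC and 0.264 and 0.101 FPKM in SKA3-KD, on 3, 2, 9 and 4 reads. All 4 were below the filter and were not tested.

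The main transcript of every member under 2 FPKM shared exon sequence with another annotated gene on its own strand, and that of no other member did. The overlapped share of the main transcript was 82.9% for NDUFV2, 75.9% for NDUFA7, 71.7% for NDUFB8, 67.0% for NDUFA11, 44.1% for NDUFA13, 17.1% for NDUFC2 and 11.8% for NDUFA9. The means of these 7 genes were 0.127 to 1.41 FPKM, and those of the other 31 were 3.97 to 469 FPKM. In the whole table, the median was 0.351 FPKM for the 477 genes with at least 50% of the main transcript overlapped on the same strand and 3.89 FPKM for the 13952 genes with no such overlap. For the 646 genes with 10% to under 50%, the range of NDUFA13, NDUFC2 and NDUFA9, it was 2.44 FPKM, and 35.8% of them were under 1 FPKM, against 32.7% of the genes without overlap. The processed pseudogene NDUFV2P1 stood at 3.59 to 4.77 FPKM, above NDUFV2 in each library. How reads shared between genes were counted is not given in the sources used here, and the part of the overlap in these levels was not tested. The levels of these 7 members are therefore uncertain as measures of the transcripts, and without them the count remained 6 lower of 31 tested with a median of -0.139.

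**Figure D3:**
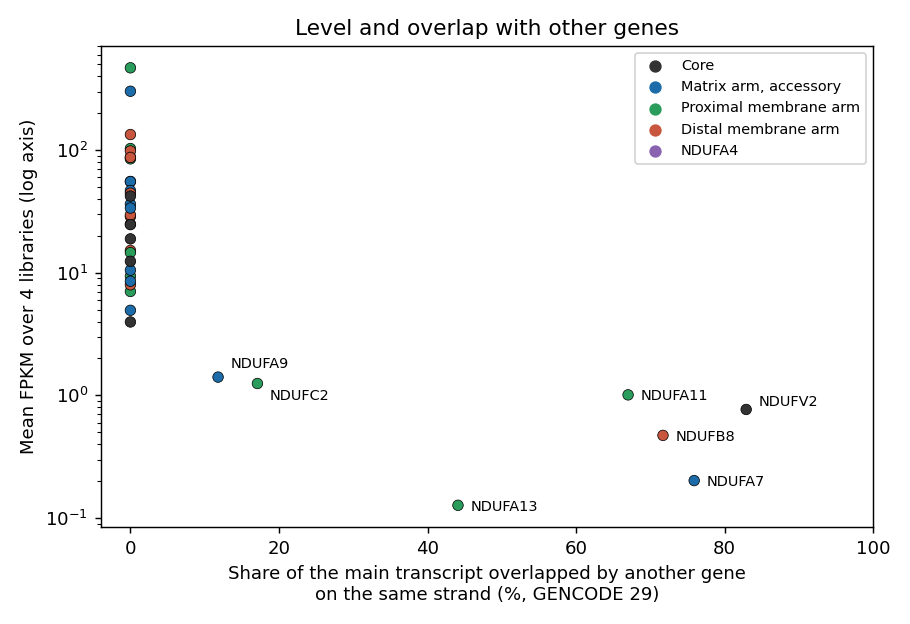
Mean FPKM over the 4 libraries (log axis) of 37 of the 38 members against the share of the main transcript overlapped by another gene on the same strand (GENCODE 29), coloured by structural group. The 7 named members with any overlap lie at or below 1.41 FPKM, and all members drawn without overlap lie at 3.97 FPKM or above.

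Processed pseudogenes, copies of spliced transcripts in the genome, were also counted. Of the 18 members with at least 1 pseudogene of their name, 16 were tested, 5 were called lower and the median was -0.25. Of the 20 members without one, 18 were tested, 1 (NDUFA1) was called lower and the median was -0.081. Over all genes tested 6.11% were called lower, and 1 of 18 is near that share. How reads were split between a gene and such copies is not stated, so the values of the first group are less certain.

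The members also have short transcripts, and short transcripts as a whole were lower in SKA3-KD. Among genes with a main transcript under 1000 bases, the median log2 fold change was -0.11 over 745 genes and -0.22 over 19 members, and 13.6% of the genes against 5 of the members were called lower. From 1000 to 2000 bases the medians were 0.00 over 2306 genes and -0.09 over 8 members. From 2000 to 4000 bases they were 0.03 over 4067 genes and -0.21 over 4 members, of which 1 was called lower, and from 4000 bases 0.04 over 3281 genes and 0.02 over 3 members. Across the 34 members the log2 fold change and the log2 main transcript length had a Pearson r of 0.316 and a Spearman rho of 0.362, as a description over genes that share the same 4 libraries. With GC content in place of length these were 0.301 and 0.334. Over 10399 genes with a main transcript the values for length were 0.12 and 0.117.

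Removing the trend of every library with merged exon length and GC content gave a member median of -0.169, where that of all genes was 0.001, and called 6 members. With main transcript length in its place, a step chosen after seeing the data, the member median was -0.089 and that of all genes 0.015. With the main transcript correction 10 members were called lower and 1, NDUFS8, higher, while 15.8% and 16.9% of 10399 genes were called lower and higher. The log2 fold change of NDUFB2 was then -0.79, that of NDUFA1 -0.37, that of NDUFA4 -0.31, that of NDUFB9 -0.25, that of NDUFA12 -0.20 and that of NDUFB1 -0.18. All 6 stayed past the threshold, with smaller changes for each.

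**Figure D4:**
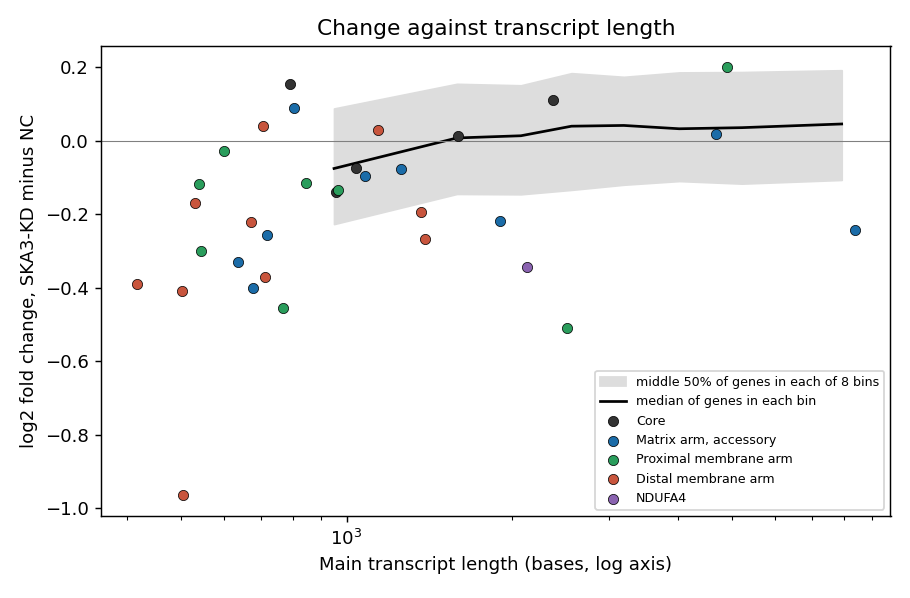
Log2 fold change of 33 of the 34 members tested (points, coloured by structural group) against main transcript length in bases (log axis), over the median (line) and middle 50% (grey) of all genes in 8 bins of length. The line starts at -0.08 for the shortest bin and stays between 0.01 and 0.05 in the others, and many members, NDUFB2 among them, are shorter than the median of that bin (949 bases).

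The mitochondrially encoded subunits of complex I, which form the core of its membrane arm, mostly stood on the other side of 0. All 7 were tested, none was called, 6 were above 0 and the median was 0.14. Over all genes tested 48.4% were below 0. MT-ND4 was measured at 3610 and 3430 FPKM in NC and 4320 and 3790 FPKM in SKA3-KD (log2 fold change 0.20, limma adjusted p = 0.165), and MT-ND4L at 1610 and 1320 FPKM in NC and 1730 and 1760 FPKM in SKA3-KD (0.26, limma adjusted p = 0.162). MT-ND3 was the one below 0, at -0.04. For 4 of the 7 both SKA3-KD libraries lay above both NC libraries, where the share over all genes tested was 32.3%. The difference between nuclear and mitochondrial subunits was not tested.

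Assembly factors, which build the complex and are not part of it, had a median of -0.05 over 20 genes. NDUFAF8 went from 34.9 and 35.8 FPKM in NC to 28.9 and 28.9 FPKM in SKA3-KD and fell by 0.28 (limma adjusted p = 0.0395). DMAC2, a factor for the distal membrane arm, went from 8.47 and 9.32 FPKM to 11.2 and 12.0 FPKM and rose (log2 fold change 0.35, limma adjusted p = 0.0499). With 1 call lower and 1 higher among 20 genes, the list was near the shares of all genes (6.11% and 6.16%). Of the 13 iron-sulfur cluster genes tested, ISCA1 fell by 0.42 (limma adjusted p = 0.0493) and the median was 0.06. It was the 1 call of that list, also near the share of all genes.

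The other respiratory complexes with nuclear subunits were described in the same way, beside 6.11% of all genes called lower, 48.4% below 0 and 29.2% with both SKA3-KD libraries below both NC libraries. In complex IV all 10 genes lay lower in both SKA3-KD libraries, with a median of -0.29, and 3 were called. COX5B went from 188 and 168 FPKM in NC to 131 and 119 FPKM in SKA3-KD (-0.51, limma adjusted p = 0.0271), COX7C fell by 0.38 (limma adjusted p = 0.0432) and COX4I1 by 0.28 (limma adjusted p = 0.0393). In complex III 9 of 9 genes were below 0 (median -0.21) and UQCR10 was called, falling by 0.49 (limma adjusted p = 0.0344). Of 16 ATP synthase genes tested 15 were below 0 (median -0.16) and ATP5F1A fell by 0.35 (limma adjusted p = 0.0384). Complex II, which has no mitochondrially encoded subunit, had no call among 4 genes and a median of 0.04. Of 72 mitochondrial ribosomal genes tested 7 fell and none rose (median -0.06), with the largest changes for MRPS35 (-0.74, limma adjusted p = 0.0287) and MRPS33. Genes with a main transcript under 1000 bases were lower as a whole (median -0.11), and the part of transcript length in these lists was not tested.

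Of 12 regulators of respiratory gene transcription, PPARGC1A (PGC-1alpha), a coactivator of mitochondrial biogenesis, was the one called. It went from 2.84 and 2.64 FPKM in NC to 0.981 and 0.815 FPKM in SKA3-KD and fell by 0.98 on the log2(FPKM + 1) scale (SE 0.129, limma adjusted p = 0.0189). Both SKA3-KD libraries were far below both NC libraries. NRF1 and ESRRA, transcription factors that it is known to coactivate, had log2 fold changes of 0.03 and -0.04, and TFAM, which drives transcription of mitochondrial DNA, had 0.07, none past the threshold. The median of the 12 genes was -0.07, and the 1 call among them stands beside 6.11% of all genes called lower.

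**Figure D5:**
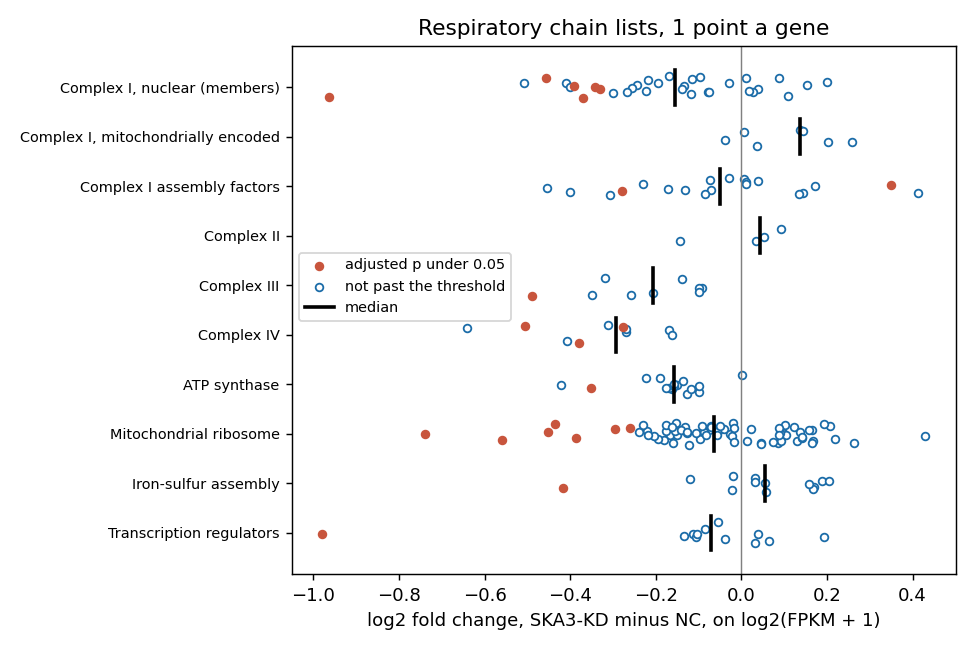
Log2 fold change (SKA3-KD minus NC, on log2(FPKM + 1)) of genes tested in the complex I members (33 of 34 drawn) and 9 related lists, with red points for adjusted p under 0.05 and black bars for list medians. Medians are -0.154 for the members and -0.29 for complex IV, and 0.14 for the mitochondrially encoded subunits.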

How the data were processed

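RNA was extracted with Trizol from TU-177 cells and sequenced on an Illumina platform. For each gene the deposited table holds FPKM as the authors made them. The submitters' processing notes name hg19, Bowtie2 2.2.8, HISAT2, StringTie 1.3.1 and Cuffdiff 2.1.1 without their roles. Symbols, positions and lengths came from GENCODE 29 (GRCh38) by Ensembl identifier (27199 of 28729 genes), a build other than the one in the labels. The main transcript of a gene was its best APPRIS transcript.

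SKA3-KD was compared with NC with limma 3.58.1 in R 4.3.3 (lmFit, eBayes with a trend) on log2(FPKM + 1), a scale that understates changes of low genes. It covered 12645 genes with a mean of at least 1 FPKM, with Benjamini-Hochberg adjustment and a threshold of 0.05. No list was tested as a set. Whole reads were recovered from FPKM steps with the GENCODE length for 69.0% of the genes above 0 (tolerance 0.02 reads) and with another length for 31.0% (tolerance 0.004 reads). These reads summed to 110.1% to 111.8% of the library sizes and served a limma voom alternative and as a guide to depth. On simulated 2-fold changes in 200 of 12645 genes, limma recovered 142 with 10 false calls and voom recovered 174 with 0.

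The members and lists were chosen with earlier results of these data known. Named were SKA3, members past the threshold, core genes, extremes of level and change in each structural group, members under the filter, and called genes of each list (the 2 largest where over 4); other members, and uncalled genes of the lists, were picked after their values were seen. The alternatives were other pseudocounts, filters, scalings, variance models, a replicate block, length and GC corrections, voom, other thresholds, member subsets and leaving out each library. Of the members, 1 is counted and is not reported here by itself.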

Additional observations from a re-analysis of the deposited data

How the results depend on the processing

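The number of genes past the threshold, 1551, was 129 without a filter, 693 without a variance trend, 2964 with voom, 2426 with the correction for merged exon length and GC content, 3403 with that for main transcript length, 2798 at an adjusted p under 0.1 and 3958 at an unadjusted p under 0.05. The members called, 6 in the report, were 1 without a filter, 1 without a trend, 10 with a filter of 5 FPKM, 13 with voom, 11 with the main transcript correction, 10 at an adjusted p under 0.1, 15 at an unadjusted p under 0.05 and 1 without members that have pseudogenes. The member median was -0.089 with the main transcript correction and -0.081 without members that have pseudogenes. The labels share replicate numbers but name no shared batch, and the deviations of same-numbered libraries correlated at 0.0973. With the number as a replicate block, 1967 genes and 11 members were called. Leaving out each library in turn gave 0 to 181 genes, 0 to 1 members, a median of -0.219 to -0.125, and a SKA3 log2 fold change of -1.141 to -1.040. SKA3 then missed the threshold without NC 1 (limma adjusted p = 0.066) and without NC 2 (limma adjusted p = 0.060). In these fits the lone library of a group is assumed to vary like the other group. The cause of these shifts was not tested. Of the other named members, none of them called in the report, NDUFV1 changed sign to -0.003 with quantile normalization, -0.069 with the merged exon correction and -0.010 with the main transcript correction, and leaving out a library moved NDUFV1 to between -0.007 and 0.030, NDUFB10 to between -0.042 and 0.123, NDUFA2 to between -0.040 and 0.218 and NDUFS7 to between -0.254 and 0.103. Depth limits the members with few reads, NDUFA13 and NDUFA7 above all.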

Other observations

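NDUFA4L2, a relative of NDUFA4 that the member rule leaves out, stood at 1.43 and 2.61 FPKM in NC and at 0.910 and 1.72 FPKM in SKA3-KD, with overlapping groups and a log2 fold change of -0.38 (SE 0.27, limma adjusted p = 0.398). Of the genes with at least 50% of the main transcript overlapped on the same strand, 63.7% had a mean under 1 FPKM, against 32.7% of the genes with no such overlap and 28.7% of the 582 genes with some overlap under 10%.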
